A study of Homo sapiens with 15 samples.

Results

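BCL2, BCL2L1 and BAG1 are genes of the survival arm of apoptosis, and they were chosen by name from the panel: all 3 were present among its 758 genes. The panel was run on RNA from JIMT-1, an established human HER2-positive breast cancer cell line, and the labels class it as an array platform. HSL119 libraries (n = 3) came from JIMT-1 cells given 1 ug/ul of HSL119, a compound known here by its code name. KD1 (n = 4) and KD2 (n = 4) were JIMT-1 lines carrying shRNA against HUNK, a serine/threonine kinase, and were kept in medium with 1 ug/ul puromycin. CTL libraries (n = 4) were the control JIMT-1 cells, and all groups were grown with 10% serum. The labels give no treatment time, and they leave unsaid what CTL cells were given in place of compound, puromycin or shRNA. They also do not say whether KD1 and KD2 were single clones or whether the libraries of a group came from separate cultures, so p-values measure the spread between these libraries, which may be technical. HUNK is not on the panel, so the knockdown was not checked here.

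The BCL2 family decides whether the outer mitochondrial membrane stays closed. BCL2 and BCL-xL, the long product of BCL2L1, bind and restrain the pore-forming effector BAX, while BH3-only proteins such as BAD and PUMA (gene BBC3) occupy the survival proteins and free the effectors. BAG1 is a co-chaperone that binds HSP70 chaperones through its BAG domain, was first found as a partner of BCL2, and is read together with BCL2 in a breast cancer recurrence test. In breast cancer BCL2 is known as an oestrogen receptor associated gene.

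The libraries held 1241234 to 1561639 counts, and 622 genes whose linear value passed 20 in at least 3 of the 15 libraries were tested. HSL119 replicate 2 stood apart with 619 genes over that value, against 523 to 567 in the other libraries. The deposited log2 and linear values place the groups at different heights, and the median tested gene lay 0.41, 0.43 and 0.41 above CTL on the deposited log2 scale in HSL119, KD1 and KD2. Differences are therefore given as log2 differences relative to that median. Per-library levels are given as scaled counts, which are the linear values after median of ratios scaling. The words rose and fell are kept for a gene whose Benjamini-Hochberg adjusted p lay under 0.05 in the same direction in all 10 limma fits. An adjusted p tests the raw difference on the scale of its fit, without the median gene subtracted. The fits used 5 scalings, first on single libraries and then after averaging libraries 1 and 2, and 3 and 4, within KD1, KD2 and CTL. Such pairs had close recovered counts: their chi-square over degrees of freedom was 1.15 to 1.54, except for KD2 libraries 3 and 4 at 23.8, against 135 to 174 between the pairs of a knockdown line. The JIMT-1 markers ERBB2, GRB7, KRT7 and CDH1 exceeded 20 in every library. Of 8 markers of leukocytes, endothelium and fibroblasts, 3 exceeded 20 in every HSL119 library, 2 in every KD1 and every KD2 library and 1 in every CTL library. Their summed linear value was 207 to 231 in HSL119, 460 to 501 in KD1, 517 to 665 in KD2 and 456 to 511 in CTL, and their part in the results was not tested. In these bulk libraries, fewer cells of a kind and less RNA per cell cannot be told apart.

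With HSL119, BAG1 rose and BCL2L1 fell, and BCL2 did not pass. Thus 2 of 3 members changed, beside 38.4% of all tested genes (20.3% rose and 18.2% fell). In KD1 and in KD2 against CTL no member changed under the same rule, beside 8.04% and 11.1% of all tested genes. The 3 comparisons share the CTL libraries. HSL119 and the knockdown lines lay on opposite sides of CTL for BAG1 on scaled counts, and the direct comparison of HSL119 with the mean of KD1 and KD2 called BAG1 up and BCL2L1 down, which is 2 of 3 members beside 46.8% of all tested genes, 22.2% upward and 24.6% downward. On the deposited log2 scale alone, an adjusted p under 0.05 was reached by 3 of 3 members in HSL119, 2 of 3 in KD1 and 1 of 3 in KD2 against CTL, beside 71.5%, 60.0% and 62.1% of all tested genes. These counts include BCL2 each time, which entered the test only through knockdown libraries, so its part in the knockdown counts supports no call. In KD2, BCL2 is the only member counted. An adjusted p under 0.05 was reached by 0 of 3 between KD1 and KD2 and by 2 of 3 between HSL119 and the mean of the knockdowns, beside 9.16% and 66.1%.

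**Figure D1:**
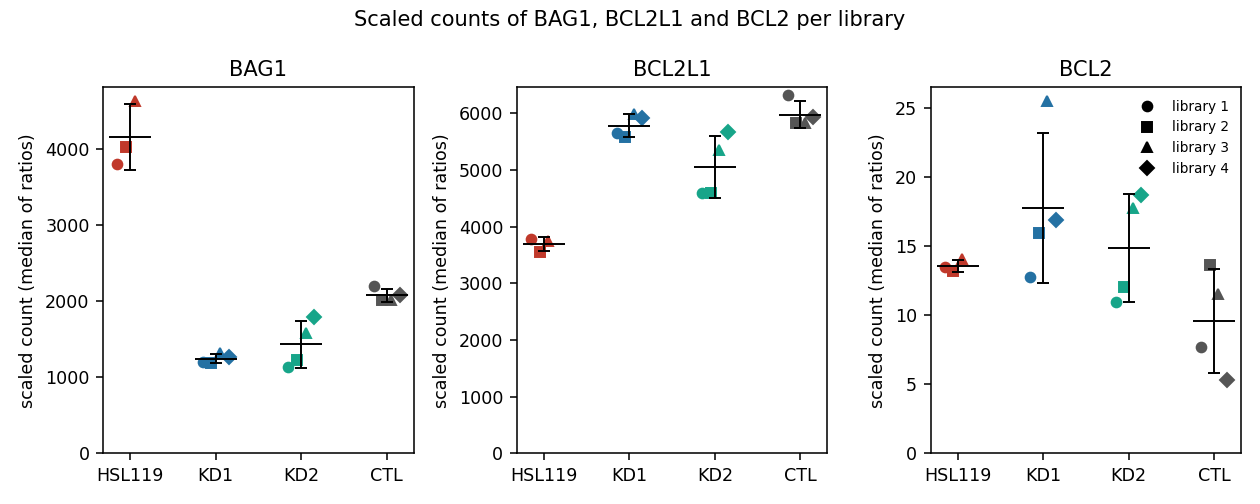
Scaled counts (median of ratios) of BAG1, BCL2L1 and BCL2 on linear axes from 0, with 1 point per library, the marker shape giving the library number, and bars for the mean and SD of each group (HSL119 n = 3, KD1, KD2 and CTL n = 4). BAG1 is highest in the 3 HSL119 libraries, BCL2L1 is lowest there, and BCL2 lies under 26 in every library.

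BAG1, the co-chaperone, lies on chromosome 9 (GRCh38.p14, chr9:33252471-33264708, minus strand). The 250 bases before its start, from RefSeq on GRCh38.p14 at chr9:33264709-33264958 and written on the gene's own strand, are shown because BAG1 made the largest move of the members with HSL119 relative to CTL. Capitals mark each match to GGGCGG, the GC box, searched on both strands with no overlap with the other motifs.
BAG1 promoter: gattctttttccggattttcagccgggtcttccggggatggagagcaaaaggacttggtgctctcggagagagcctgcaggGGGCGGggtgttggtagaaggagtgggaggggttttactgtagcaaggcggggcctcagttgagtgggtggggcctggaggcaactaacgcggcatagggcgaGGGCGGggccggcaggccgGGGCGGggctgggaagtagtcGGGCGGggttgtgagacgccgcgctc
The window held 4 such matches, beginning 169, 66, 47 and 26 bases before the start, in a sequence of 65.2% G and C. At least 1 match occurred in 42.6% of 35114 promoter windows of the same length and in 55.9% of 734 windows of panel genes, and at least 4 occurred in 7.6% of the 35114. A match is a string of letters and not a measured binding site.

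BAG1 had 3801, 4023 and 4633 scaled counts in HSL119 libraries, 1204, 1180, 1314 and 1270 in KD1, and 1138, 1221, 1577 and 1794 in KD2, against 2199, 2013, 2015 and 2083 in CTL libraries. Every HSL119 library lay above every CTL library, and every KD1 and KD2 library lay below them. The means were 4152 ± 431 in HSL119 (SD, n = 3), 1242 ± 61.3 in KD1, 1432 ± 307 in KD2 and 2078 ± 87.6 in CTL (SD, n = 4 each). From high to low the order was therefore HSL119, CTL, KD2, KD1, in which the ranges of KD2 and KD1 overlapped and the other neighbours did not. On the authors' linear scale, without rescaling, KD2 also overlapped CTL, at 1211 to 2036 against 1840 to 1963.

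BAG1 rose 1.92-fold in HSL119 relative to CTL and to the median gene, a log2 difference of 0.94 (SE 0.15, 95% interval 0.61 to 1.27). The limma adjusted p was 2.26e-06 on the deposited values and at most 0.00741 in the 10 fits. The rise passed in all 10 fits also without any single library. In KD1 the log2 difference from CTL was -0.75 (SE 0.14, interval -1.06 to -0.45), with an adjusted p of 0.0623 on the deposited values and a pass in 6 of 10 fits. In KD2 it was -0.55 (SE 0.14, interval -0.86 to -0.25), with an adjusted p of 0.416 on the deposited values and a pass in 4 of 10 fits. Both intervals lie below 0, yet the calls depended on the scaling and on whether library pairs were averaged. On the deposited scale the raw difference is smaller, since that scale puts the median gene itself above CTL. In KD2, median of ratios and quantile values passed on single libraries but not with pairs averaged. The intervals come from the fit on single libraries, so they rest in part on the small spread within pairs. HSL119 against the mean of the knockdowns differed by 1.66 (SE 0.13, interval 1.37 to 1.95), a 3.17-fold higher level in HSL119, with adjusted p 1.16e-07 and at most 0.000126 in the 10 fits.

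**Figure D2:**
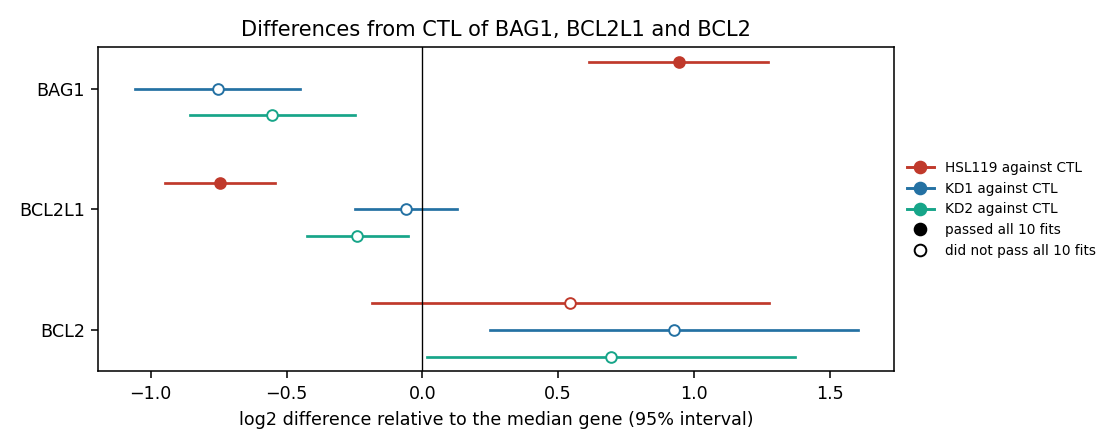
Log2 differences from CTL relative to the median tested gene, with 95% intervals from the limma fit, for HSL119, KD1 and KD2 (top to bottom within each gene); filled circles passed all 10 fits and open circles did not. BAG1 (0.94) and BCL2L1 (-0.75) in HSL119 are the filled circles, and the BAG1 intervals of KD1 and KD2 lie on the other side of 0 from HSL119.

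Libraries 3 and 4 of the knockdown lines differed from libraries 1 and 2. In KD2, BAG1 averaged 1685 scaled counts in libraries 3 and 4, against 1180 in libraries 1 and 2, a log2 difference of 0.51 that 35.4% of all tested genes matched or exceeded. The same difference was 0.12 in KD1 and -0.04 in CTL. With libraries 1 and 2 of KD1, KD2 and CTL alone, BAG1 passed downward on the 5 scalings in both lines, at -0.82 in KD1 (adjusted p 0.00136) and -0.85 in KD2 (adjusted p 0.000862, limma). Libraries 1 and 2 of each of these groups differed by little more than counting error, so these p-values rest in part on that small spread. With libraries 3 and 4 alone its values were -0.68 in KD1 and -0.27 in KD2 with adjusted p 0.0555 and 0.184, and it did not pass on every scaling. The difference between the library pairs in these effects was not tested. KD1 minus KD2 was -0.18 (SE 0.14, interval -0.48 to 0.13, adjusted p 0.571), and no member changed between the lines, beside 0.161% of all tested genes.

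BCL2L1, which encodes BCL-xL, lies on chromosome 20 (GRCh38.p14, chr20:31664452-31723963, minus strand). RefSeq lists 2 starts for it, and the upstream one is shown because its window lies outside the gene, at chr20:31723964-31724213 on GRCh38.p14, written on the gene's own strand. Capitals mark each match to TATAAA, the TATA box, searched on both strands with no overlap with the other motifs.
BCL2L1 promoter: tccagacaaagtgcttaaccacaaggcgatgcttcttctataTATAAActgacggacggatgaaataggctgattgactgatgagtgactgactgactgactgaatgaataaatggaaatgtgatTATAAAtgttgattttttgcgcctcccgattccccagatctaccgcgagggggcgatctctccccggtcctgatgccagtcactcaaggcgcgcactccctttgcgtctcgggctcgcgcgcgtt
This window held 2 matches, beginning 208 and 125 bases before the start. At least 1 match occurred in 10.7% of 35114 windows and in 11.7% of 734 panel windows. The BAG1 window held none of these, and the BCL2L1 windows held no GC box. An ETS core (CCGGAAGT), an AP-1 element (TGANTCA) and a STAT element (TTCNNNGAA) were found in none of the windows of the 3 members, and 3.4%, 6.6% and 6.6% of all windows held them.

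BCL2L1 had 3776, 3557 and 3751 scaled counts in HSL119 libraries, 5651, 5577, 5978 and 5914 in KD1, and 4598, 4595, 5358 and 5672 in KD2, against 6318, 5829, 5820 and 5929 in CTL libraries. HSL119 libraries were the lowest of all, KD2 libraries lay below CTL, and KD1 overlapped CTL. The means were 3695 ± 120 in HSL119 (SD, n = 3), 5780 ± 196 in KD1, 5056 ± 546 in KD2 and 5974 ± 234 in CTL (SD, n = 4 each). From high to low the order was CTL, KD1, KD2, HSL119, in which CTL and KD1 overlapped, as did KD1 and KD2. On the authors' linear scale every KD1 library lay above CTL (5865 to 6778 against 5330 to 5638), so the position of KD1 beside CTL depends on the scaling, whereas HSL119 lay lowest on that scale too. Non-overlap with CTL on scaled counts held for 2 of 3 members in HSL119, 1 of 3 in KD1 and 2 of 3 in KD2, beside 74.9%, 51.1% and 53.4% of all tested genes. Between KD1 and KD2 it held for 0 of 3, beside 12.2%.

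BCL2L1 fell 1.68-fold in HSL119 relative to CTL and to the median gene, a log2 difference of -0.75 (SE 0.09, interval -0.95 to -0.54). The limma adjusted p was 0.00585 on the deposited values, where the raw difference was -0.336, and at most 0.0393 in the 10 fits. The call rests on each HSL119 library: without replicate 1, 2 or 3 the highest adjusted p of the 10 fits became 0.0802, 0.0913 or 0.0851, and without KD2 replicate 3 it became 0.0506, while the log2 difference stayed between -0.79 and -0.70. In KD1 the difference from CTL was -0.06 (SE 0.09, interval -0.25 to 0.13), with a pass upward in 1 of 10 fits. In KD2 it was -0.24 (SE 0.09, interval -0.43 to -0.05), with a pass downward in 3 of 10 fits. The raw KD2 difference on the deposited values was upward, at 0.175, with a limma adjusted p of 0.097. HSL119 against the mean of the knockdowns differed by -0.53 (SE 0.08, interval -0.71 to -0.35), with adjusted p 1.59e-05 and at most 0.00216. That call was lost when all 758 genes were tested without the filter on low values, where the highest adjusted p was 0.678.

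Between the lines, BCL2L1 was higher in KD1 than in KD2 by 0.20 (SE 0.09, interval 0.02 to 0.39) with an adjusted p of 0.223. Same-numbered KD1 and KD2 libraries deviated together, and with the replicate number as a block in a fit of KD1 and KD2 alone the adjusted p was 0.0292 (SE 0.05), although it did not pass on every scaling. That block assumes a pairing by number, yet KD1 library 4 was most like KD2 library 3. With libraries 1 and 2 alone the value was 0.31 (adjusted p 0.00106, resting in part on the same small spread), and with libraries 3 and 4 alone it was 0.10 (adjusted p 0.183, limma). In KD2, libraries 3 and 4 averaged 5515 scaled counts, against 4597 in libraries 1 and 2.

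BCL2, the founding survival gene of the family, lies on chromosome 18 (GRCh38.p14, chr18:63123346-63320090) and was near the lower limit of the panel. It had 13.5, 13.2 and 14.1 scaled counts in HSL119 libraries, 12.8, 15.9, 25.5 and 16.9 in KD1, and 10.9, 12.0, 17.7 and 18.7 in KD2, against 7.73, 13.7, 11.6 and 5.33 in CTL libraries. Every group overlapped CTL on scaled counts, and the highest value was in KD1 replicate 3. The means were 13.6 ± 0.428 in HSL119 (SD, n = 3), 17.8 ± 5.44 in KD1, 14.9 ± 3.93 in KD2 and 9.57 ± 3.74 in CTL (SD, n = 4 each), and from high to low the order was KD1, KD2, HSL119, CTL, in which all neighbours overlapped. On the authors' linear scale, without rescaling, every KD1 library lay above CTL, at 13.8 to 28.9 against 4.92 to 12.5. BCL2 entered the test only through the knockdown lines, with a linear value over 20 in 1 KD1 and 2 KD2 libraries and in no HSL119 or CTL library.

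The values rest on few counts. BCL2 was counted 15 to 17 times per HSL119 library, 13 to 27 times per KD1 library and 11 to 20 times per KD2 library, against 5 to 12 times per CTL library. Summed over the libraries this was 11.4 per 1000000 counts in HSL119 (exact Poisson 95% interval 8.43 to 15.2), 12.3 in KD1 (9.67 to 15.5), 10.3 in KD2 (7.9 to 13.2) and 6.12 in CTL (4.22 to 8.6), where the intervals cover counting error only. The median linear value of the 136 genes left out of the test was 12.8 in HSL119, 10.5 in KD1, 10.6 in KD2 and 10.3 in CTL. Of the values of those genes, 48.3% in HSL119, 97.4% in KD1, 86.2% in KD2 and 39.7% in CTL lay below the group's BCL2 mean. BCL2 thus could not be told from genes at the lower limit in HSL119 and CTL. For KD1 and KD2 the comparison cannot decide this. Those genes were left out for seldom passing a linear value of 20, whereas BCL2 was kept through knockdown libraries that passed it. The high shares in KD1 and KD2 therefore follow at least in part from the filter.

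Because BCL2 was tested only through these knockdown libraries, its differences are given as a description with no p-value. The fitted log2 difference from CTL was 0.55 in HSL119 (SE 0.34), 0.93 in KD1 (SE 0.31) and 0.69 in KD2 (SE 0.31), and none passed in all 10 fits. With libraries 3 and 4 alone, which include all those over a linear value of 20, the fitted values were 1.39 in KD1 and 1.23 in KD2, and with libraries 1 and 2 alone they were 0.48 and 0.14. KD1 minus KD2 was 0.25 (SE 0.31), and HSL119 minus the mean of the knockdowns was -0.20 (SE 0.30).

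The ratio of BCL2L1 to BAG1 within a library does not depend on any scaling between libraries. Probes of different genes are not read with the same efficiency, so the ratio is compared between groups and not read as a ratio of transcripts. Its log2 value averaged -0.16 ± 0.15 in HSL119 (SD, n = 3), 2.22 ± 0.02 in KD1, 1.84 ± 0.16 in KD2 and 1.52 ± 0.01 in CTL (SD, n = 4 each). The groups formed separate bands, with KD2 at 1.661 to 2.015 coming near CTL at 1.509 to 1.534. The log2 difference from CTL was -1.69 in HSL119 (0.310-fold), 0.69 in KD1 (1.62-fold) and 0.31 in KD2 (1.24-fold), and no HSL119, KD1 or KD2 library overlapped CTL. Its direction is thus opposite in HSL119 and in both lines. No test is given, since the pair was set together with the members' values known. How many other gene pairs separate the groups in this way was not computed. Among single tested genes, 74.9%, 51.1% and 53.4% did not overlap CTL on scaled counts in HSL119, KD1 and KD2. The small SDs of KD1 and CTL rest in part on library pairs with close counts.

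**Figure D3:**
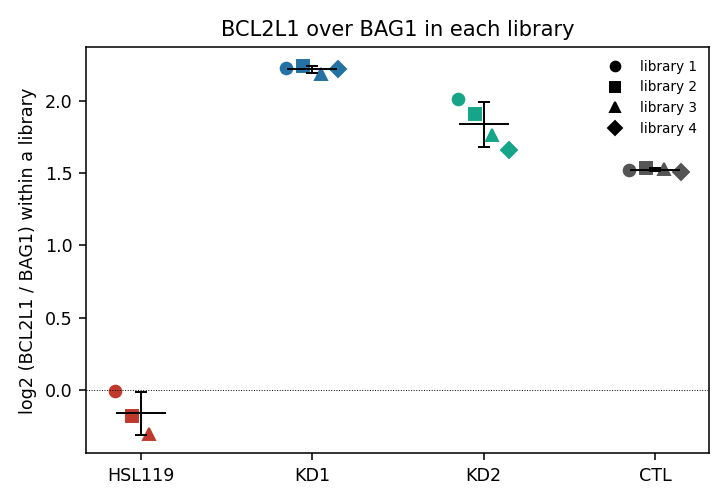
Log2 of BCL2L1 over BAG1 within each library (vertical axis) by group, with the marker shape giving the library number and bars for the mean and SD. The 3 HSL119 libraries lie at -0.01 or below, the KD1 and KD2 libraries between 1.66 and 2.24, and the CTL libraries between 1.51 and 1.53.

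Of the other BCL2 and BAG family genes listed as relatives, 5 were on the panel and all were tested. None rose or fell in HSL119, KD1 or KD2 against CTL, and the median log2 difference was 0.18, -0.05 and -0.17 in the 3 comparisons, beside 0 by construction for all genes. The quartiles of all tested genes were -0.74 and 0.61 in HSL119, -0.34 and 0.35 in KD1 and -0.36 and 0.45 in KD2. Where libraries of the apoptosis genes below are said to lie above or below CTL, most tested genes did the same. On scaled counts, 74.9%, 51.1% and 53.4% of all tested genes did not overlap CTL in HSL119, KD1 and KD2.

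BAX, the pore-forming effector, had 4004, 3676 and 3916 scaled counts in HSL119 libraries, 3014 to 3515 in KD1 and 3336 to 4161 in KD2, against 3214 to 3361 in CTL libraries. HSL119 lay above CTL, KD1 and KD2 overlapped it, and the log2 differences were 0.18, -0.05 and 0.18 in HSL119, KD1 and KD2. BAD, a BH3-only sensitizer that binds BCL-xL and BCL2, had 1318, 1258 and 1294 scaled counts in HSL119 libraries, 852 to 1108 in KD1 and 893 to 1249 in KD2, against 837 to 881 in CTL libraries. HSL119 and KD2 lay above CTL, and KD1 overlapped it. Its log2 difference was 0.53 in HSL119 (SE 0.15), 0.17 in KD1 and 0.32 in KD2. In HSL119 it passed in 8 of 10 fits, with a limma adjusted p of 6.32e-05 for the raw difference of 0.939 on the deposited values.

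BBC3, the gene of the BH3-only protein PUMA, had 1224, 1198 and 1325 scaled counts in HSL119 libraries, 976, 1040, 519 and 493 in KD1, and 1248, 1266, 508 and 414 in KD2, against 1700, 1581, 1649 and 1797 in CTL libraries. All HSL119, KD1 and KD2 libraries lay below CTL, and libraries 3 and 4 of both lines were the lowest. The log2 difference was -0.48 in HSL119, -1.25 in KD1 (SE 0.32, adjusted p 0.0418 on the deposited values, a pass in 5 of 10 fits) and -1.14 in KD2 (SE 0.32, adjusted p 0.0657, a pass in 4 of 10 fits). BNIP3, a mitochondrial protein of hypoxia and mitophagy, had 566, 491 and 518 scaled counts in HSL119 libraries, 653 to 681 in KD1 and 609 to 740 in KD2, against 751 to 788 in CTL libraries. It lay below CTL in all groups, passed in 9 of 10 fits in HSL119 (log2 difference -0.60, SE 0.08), and was the relative that fell in HSL119 against the mean of the knockdowns, by 0.35 (SE 0.07, adjusted p 6.09e-05). That call was lost without the filter on low values. BCL2A1, a survival protein like BCL2, was also near the lower limit, at 7.47 to 23.7 scaled counts over all libraries. It entered the test only through HSL119 and KD1, with a linear value over 20 in 2 HSL119 libraries and 1 KD1 library. Its differences from CTL, 0.67 in HSL119, 0.21 in KD1 and -0.25 in KD2, are therefore a description only.

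**Figure D4:**
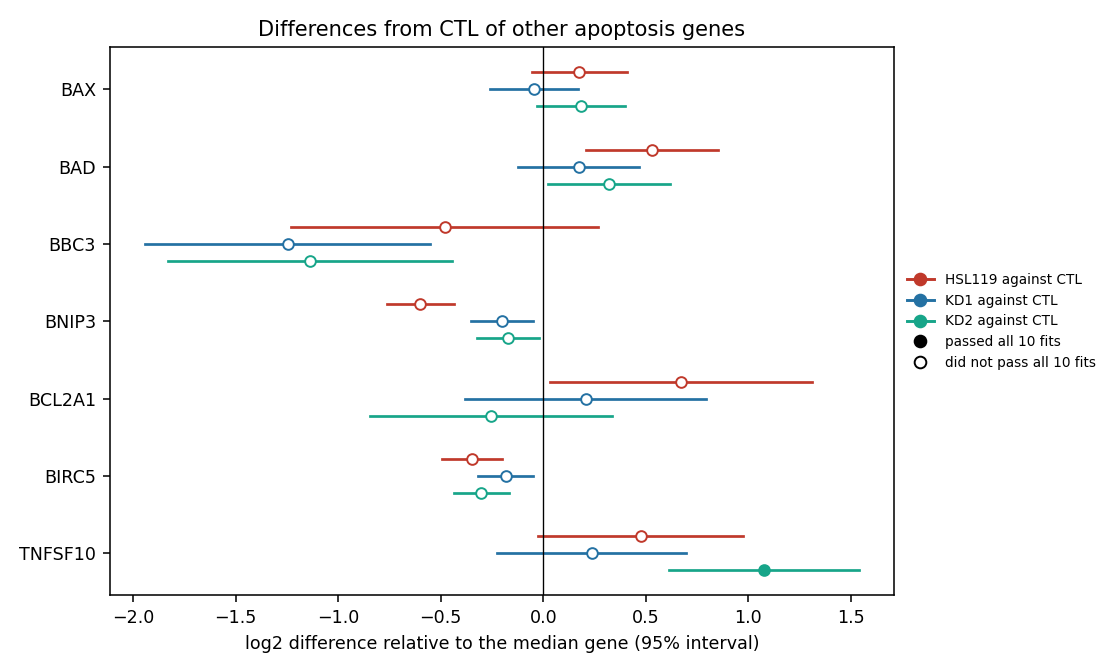
Log2 differences from CTL relative to the median tested gene, with 95% limma intervals, for 7 other apoptosis genes, with HSL119, KD1 and KD2 from top to bottom within each gene; filled circles passed all 10 fits. TNFSF10 in KD2 (1.07) is the filled circle, and BBC3 lies lowest in both knockdown lines (-1.25 and -1.14). BCL2A1 entered the test only through HSL119 and KD1 libraries.

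Among caspase, inhibitor of apoptosis and death receptor genes, 2 are reported, and 1 of them passed in 1 comparison. TNFSF10, the death ligand TRAIL, had 28.8 to 31.5 scaled counts in HSL119 libraries, 22.6, 24.9, 17.9 and 35.6 in KD1, and 51.7, 42.2, 50.4 and 31.8 in KD2, against 20.6, 17.1, 25.4 and 20.2 in CTL libraries. KD2 and HSL119 lay above CTL, and KD1 overlapped it. It rose in KD2 by 1.07 (SE 0.21), and was 0.47 in HSL119 and 0.24 in KD1, which did not pass. The limma adjusted p in KD2 was 4.57e-05 for the raw difference of 1.489 on the deposited values, and at most 0.0243 in the 10 fits. The KD2 call was lost with libraries 3 and 4 alone, where the highest adjusted p was 0.1. KD1 minus KD2 was -0.82 (adjusted p 0.0277), a pass in 5 of 10 fits. BIRC5, the inhibitor of apoptosis survivin, differed from CTL by -0.35, -0.18 and -0.30 in HSL119, KD1 and KD2, and did not pass.

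JAK, cytokine and SOCS genes were listed because JAK-STAT signalling is known to induce BCL2L1. Of 12 reported, all tested, 2 rose and 3 fell in HSL119 against CTL, beside 38.4% of all tested genes, with a median of -0.07, and none passed in KD1 or KD2, with medians of -0.25 and -0.42. The SOCS2 feedback inhibitor rose by 1.65 and the LIF ligand by 1.55, and IL6 fell by 2.13, the SOCS1 feedback inhibitor by 1.54 and the LIF receptor LIFR by 1.18. The SOCS1 call was lost without HSL119 replicate 1, 2 or 3, with a highest adjusted p of 0.0903, 0.0843 or 0.102, and also without the filter (0.0511). In KD1 and KD2, SOCS1 differed from CTL in the same direction as in HSL119, at -1.765 (a pass in 8 of 10 fits) and -1.468 (6 of 10). LIF did too, at 0.69 and 0.73 (6 of 10 each), as did LIFR, at -0.36 (3 of 10) and -0.55 (7 of 10). IL6 went the other way, at 0.25 and 1.14 (7 of 10 in KD2), and SOCS2 was at 0.22 and -0.02. In HSL119 against the mean of the knockdowns 5 rose and 3 fell, beside 46.8% of all tested genes, with SOCS2 at 1.62, IL6R at 0.97, LIF at 0.91, the kinases JAK2 and TYK2 at 0.74 and 0.59, IL6 at -2.77 and LIFR at -0.65. The prolactin receptor PRLR is the third counted as fallen, but no value is given for it, since it passed the filter only through KD1 and KD2 libraries. Of these calls, TYK2 was lost without HSL119 replicate 2 (0.0501), and LIFR without HSL119 replicate 3 (0.072) or without the filter (0.549). LIF was lost without any of 6 single libraries, each HSL119 library among them, or without the filter (0.0525). PRLR was lost without any of 12 single libraries, with the replicate block (0.0503), with libraries 1 and 2 alone (0.378) and without the filter (0.936).

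BAG1 and BCL2 are read together with proliferation, HER2 and oestrogen receptor genes in the breast cancer recurrence test, of which 12 others, BIRC5 among them, were on the panel and 11 tested. In HSL119 against CTL 3 rose and 1 fell, beside 38.4% of all tested genes, namely the proliferation marker MKI67 (0.63), the receptor ERBB2 (1.46) and the oestrogen receptor ESR1 (1.11) upward and the macrophage marker CD68 (-2.23) downward. In KD1 only MKI67 rose (0.59), and in KD2 only ESR1 (1.00). Of these, MKI67 in HSL119 was lost without HSL119 replicate 3 (highest adjusted p 0.0625), MKI67 in KD1 without any HSL119 library, KD1 replicate 2 or the filter (up to 0.0794), and ESR1 in KD2 without any HSL119 library, CTL replicates 2 or 3 or KD1 replicate 3 (up to 0.0791). MKI67 in KD2 (0.50, a pass in 9 of 10 fits) and ESR1 in KD1 (0.57, a pass in 4 of 10 fits) differed from CTL in the same direction. Between the lines neither passed in any of the 10 fits, with KD1 minus KD2 at 0.11 for MKI67 and -0.41 for ESR1. ERBB2 was also above CTL in KD1 (0.36, a pass in 7 of 10 fits) and KD2 (0.285, 6 of 10). CD68 was below CTL in KD1 (-0.78, 4 of 10) and KD2 (-0.48, 2 of 10). The medians of the list were -0.15, 0.16 and 0.04 in HSL119, KD1 and KD2.

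The genes most like each member over the 15 libraries were taken by Pearson correlation of log2 scaled counts, as a description, since the libraries fall into groups and share their scaling. BAG1 was most like CDKN1A (r = 0.957), the cell cycle inhibitor p21, MLPH (0.953) and SIGIRR (0.95). BCL2L1 was most like the ETS factor ETV4 (0.951), the nuclear receptor PPARG (0.949) and the ERK pathway inhibitor SPRY4 (0.934). BCL2 was most like the replication kinase CDC7 (0.869), the ligand WNT5B (0.798) and the histone gene HIST1H3H (0.783). Among the members the correlation was -0.642 for BCL2L1 with BAG1, -0.055 for BCL2 with BCL2L1 and -0.185 for BCL2 with BAG1, all over 15 libraries.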

How the data were processed

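A panel of 758 genes was measured in 15 JIMT-1 libraries. The authors deposited, per the file headers, normalized counts in a log2 block and again in a linear block, used here as a signal on the authors' own scale; their normalization and the counting software are not given in the sources used here. The deposited signal was a whole count times 1 step per library in 100.0% of values, within 0.001, and these recovered counts were used for depth and for an edgeR 4.0.16 alternative. The deposited log2 block differed from log2 of the linear block by 0.172 in HSL119 and -0.155 in CTL on average, with no difference in the knockdowns, so that the scaling was varied. The deposited value table of the series held the same log2 values.

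Members and gene lists were chosen with earlier results of these data known. Groups came from the sample titles. Tests covered the 622 genes with a linear value over 20 in at least 3 libraries and used limma 3.58.1 under R 4.3.3 (lmFit, contrasts, eBayes with trend; 1 fit of 4 groups; two-sided; Benjamini-Hochberg over all tested genes, threshold 0.05). The 5 scalings were the log2 block as deposited, the linear block as log2(value + 1), the log2 block centred per library on its median, quantile normalization, and median of ratios. The code was tested on simulated data. Same-numbered KD1 and KD2 libraries deviated together from their group means (r = 0.594 to 0.764 over genes), whereas for other groups r was -0.214 to 0.128. The labels do not say that the number pairs these lines, and KD1 library 4 was most like KD2 library 3. The shared deviation thus cannot be told from the split of libraries 1 and 2 against 3 and 4. The number was used as a block in alternative fits only. Named were the members, the panel genes of the apoptosis lists, genes of the other lists that passed, and the 3 genes most like each member; some genes that the lists take in are not reported here. Of 758 symbols, 749 were current in the RefSeq table of GRCh38.p14, which gave positions and promoters; BCL2 and the second BCL2L1 window lie inside the gene and are not printed.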

Additional observations from a re-analysis of the deposited data

Results flagged for a closer look

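HSL119 and the HUNK knockdowns differed directly in 3 of 10 apoptosis genes, beside 46.8% of all tested genes. BAG1 was higher in HSL119 than in the mean of KD1 and KD2 by 1.66 on the relative log2 scale (limma adjusted p 1.16e-07). BCL2L1 was lower in HSL119 by that measure, at -0.53 (adjusted p 1.59e-05), and BNIP3 was at -0.345 (adjusted p 6.09e-05). The BCL2L1 and BNIP3 calls were lost without the filter on low values. BIRC5 in CTL replicate 1 was set apart from the other 3 CTL libraries, at 13.24 on the log2 scale of scaled counts, with a gap to its nearest neighbour of 0.927 of the group's range. This was 1 of 39 groups of values examined in that way, and chance sets apart about 1 in 20.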

How the results depend on the processing

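The HSL119 calls of BAG1 and BCL2L1 against CTL, and both against the mean of KD1 and KD2, kept direction and adjusted p under 0.05 in 18 alternative fits, each on 1 scale, with ranges of 0.87 to 1.10 and -0.82 to -0.66 against CTL. With the demand of every scaling, BCL2L1 against the knockdowns was lost without the filter (highest adjusted p 0.678), and BCL2L1 against CTL without single libraries (0.0506 to 0.0913). BCL2 entered the test only through knockdown libraries, so its passes support no call. The knockdown differences of BAG1 and BCL2L1 and all BCL2 differences depended on the setting, and where not stated the cause was not tested. BCL2 in HSL119 against CTL no longer passed with log2 of linear plus 1 (0.48), centring or median of ratios (0.55), quantile (0.25), each also with pairs averaged, with the replicate block on median of ratios (0.52), with edgeR (0.45), or with libraries 1 and 2 (0.36). BAG1 in KD1 against CTL passed with log2 of linear plus 1 (-0.75), centring, median of ratios or the replicate block (-0.75), quantile (-0.70), only KD1 and CTL in the fit (-0.75), edgeR (-0.76) and libraries 1 and 2 (-0.82). BAG1 in KD2 against CTL passed with centring, also with pairs averaged, and median of ratios, also with the replicate block (-0.55), quantile (-0.49), edgeR (-0.54) and libraries 1 and 2 (-0.85), and BCL2L1 there with centring and median of ratios, also with the replicate block (-0.24), quantile (-0.23) and edgeR (-0.25). For BCL2 in KD1, as a description only, the fitted difference was 0.93 with pairs averaged on centred or median of ratios values. It was 0.95 with pairs averaged on quantile values and 0.48 with libraries 1 and 2. For BCL2 in KD2, also as a description, it was 0.61 with pairs averaged on log2 of linear plus 1. It was 0.69 with centring or median of ratios, also with pairs averaged or the replicate block. With quantile it was 0.67, with edgeR 0.63 and with libraries 1 and 2 0.14. Between the lines BCL2L1 passed with the replicate block on KD1 and KD2 alone (0.20 on both scales tried) and with libraries 1 and 2 (0.30), and BAG1 with libraries 3 and 4 (-0.39). Signs turned for BCL2L1 in KD1 against CTL without the filter (0.006) and with libraries 3 and 4 (0.007), for BAG1 between the lines with libraries 1 and 2 (0.033), and for BCL2 in HSL119 against the knockdowns with libraries 1 and 2 (0.09). The number of genes passing on the deposited scale was 373 in KD1, 386 in KD2 and 57 between the lines. With pairs averaged, which leaves fewer libraries, it was 208, 251 and 1 on deposited values, 151, 205 and 1 on log2 of linear plus 1, 133, 172 and 1 centred, 81, 130 and 1 with quantile, and 124, 142 and 1 with median of ratios. Between the lines it was 9 with only KD1 and KD2 in the fit, and 145 or, on median of ratios, 149 with the replicate block as well. On every scaling the number was 50 in KD1, 69 in KD2 and 1 between the lines, against 135, 137 and 58 with libraries 1 and 2, 236, 258 and 65 with libraries 3 and 4, and 110 between the lines with the replicate block. The block changed no other call of the members. Leaving out 1 library at a time gave 0.30 to 0.74 for BCL2 in HSL119, -0.77 to -0.72 for BAG1 in KD1, 15 to 59 genes on every scaling in KD1 (15 and 17 without HSL119 replicates 2 and 3), 45 to 71 in KD2 (45 without HSL119 replicate 3), and between the lines 29 to 66 genes on the deposited scale and 0 to 1 on every scaling. BCL2 was left out by a filter at a linear value of 50. Depth limits BCL2, counted 5 to 27 times per library, and BCL2A1.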
